A study of Homo sapiens with 9 samples.

Results

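The sterol and fatty acid synthesis genes are the enzymes that build cholesterol and fatty acids from acetyl-CoA, together with the regulators that set their transcription and the proteins that move sterols in and out of cells. They were chosen by name, with earlier results of these data known, and their 37 names matched 37 of the 61552 genes listed in the files. The values describe MDA-MB-231 cells, an established human triple-negative breast cancer line of wild-type genotype, grown in DMEM with 10% fetal calf serum. The control cells received 0 mM 2-DG with phosphate-buffered saline as the vehicle, and the treated cells received 2-DG at 10 mM or at 20 mM, each for 24 h. 2-DG (2-deoxy-glucose) is a glucose analogue that enters cells like glucose and slows glycolysis. Each condition had 3 libraries, made with an mRNA sequencing kit from 1.3 ug of total RNA. The model is a single line, and RNA was extracted from 3 sample replicates of each condition. Whether these were separate cultures is not said, so the p-values measure only the spread between these libraries, which may be technical. The values are FPKM, which are reads scaled by the length of the gene and by the total of the library, so that levels of different genes can be set side by side.

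In the mevalonate pathway, acetyl-CoA units are joined, reduced and turned into isoprenoid units, which farnesyl diphosphate synthase links. Squalene synthase commits the product to sterols, and the enzymes after it close the rings and trim lanosterol to cholesterol. Acetyl-CoA is also the start of fatty acids, which ATP citrate lyase, acetyl-CoA carboxylase and fatty acid synthase make and which elongases and desaturases then modify. Both routes share a control. SREBP transcription factors lie in the endoplasmic reticulum with their escort SCAP, and INSIG proteins hold them there when sterols are plentiful. When sterols run low, SREBPs are cut in the Golgi, and the released part switches on the genes of synthesis and uptake. INSIG1 is itself a target of SREBPs, whereas LXR receptors, which sense oxysterols, switch on the exporters ABCA1 and ABCG1 and the ubiquitin ligase MYLIP.

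The promoters of these genes are shown because SREBPs act there, at sterol regulatory elements, together with the factors NF-Y, which binds CCAAT boxes, and SP1, which binds GC boxes. RefSeq promoters (build GRCh38.p14, 250 bases before to 50 after the start) were found for 32 of the 37 genes. SQLE, FDFT1, ACAT2, ABCG1 and FASN had no entry. Below are stretches before the start of genes described later. They are a regulator with a sterol element, the 3 SREBP targets INSIG1, FDPS and HMGCS1, the 2 genes that rose, SC5D and MYLIP, and INSIG2, which was not called. Capitals mark the sterol element, which SREBF2 alone has here, and the CCAAT box, which reads ATTGG on the other strand.
SREBF2, chr22:41832941-41833040, plus strand: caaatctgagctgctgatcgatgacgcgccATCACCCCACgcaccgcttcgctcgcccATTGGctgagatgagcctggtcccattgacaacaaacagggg
INSIG1, chr7:155297660-155297759, plus strand: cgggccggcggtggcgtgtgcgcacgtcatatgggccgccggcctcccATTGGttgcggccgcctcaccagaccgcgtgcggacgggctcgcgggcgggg
FDPS, chr1:155308642-155308741, plus strand: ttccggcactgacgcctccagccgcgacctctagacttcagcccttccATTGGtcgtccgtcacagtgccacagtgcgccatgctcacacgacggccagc
HMGCS1, chr5:43313516-43313615, minus strand: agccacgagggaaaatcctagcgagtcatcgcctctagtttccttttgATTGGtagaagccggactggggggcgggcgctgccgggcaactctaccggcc
SC5D, chr11:121292702-121292731, plus strand: gcgccggtcgctgATTGGctggccgctcca
MYLIP, chr6:16128929-16129028, plus strand: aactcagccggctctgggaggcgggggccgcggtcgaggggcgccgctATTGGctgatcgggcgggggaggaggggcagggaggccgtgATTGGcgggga
INSIG2, chr2:118088296-118088395, plus strand: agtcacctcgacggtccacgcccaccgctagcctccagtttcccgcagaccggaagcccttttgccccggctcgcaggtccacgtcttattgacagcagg

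A gene counted as a match if the promoter of any of its listed starts matched, and the 32 genes had up to 3 starts each. The sterol element, searched on both strands as the letters in capitals in SREBF2 with any base at the sixth, occurred in 1 of the 32 genes, SREBF2, and in 0.159% of the 11333 genes with a promoter that were tested for expression. The CCAAT box occurred in 22 of 32 genes (68.8%), against 42.9% of these tested genes and 39.7% of all 27305 genes with a promoter. The GC box GGGCGG occurred in 31 of 32 genes (96.9%), against 75.4% and 48.3%. The number of starts per gene was not matched. In the stretches above, no letter belongs to both a sterol element and a CCAAT box. Of the genes that were lower at 20 mM 2-DG, 17 of 22 had a CCAAT box, as did both genes that were higher and 3 of the 8 that were not called. INSIG1, FDPS and HMGCS1, which fell, and SC5D and MYLIP, which rose, all carry a CCAAT box, and INSIG2 carries none. A match is a description of the letters and not a bound site, and SREBPs also bind other versions of the element that this search cannot find.

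Library totals, recovered from the FPKM steps, lay between 30974968 and 40843638 reads on genes, so that 1 read on a gene of 1 kb was worth between 0.0245 and 0.0323 FPKM. Replicates correlated at 0.989 to 0.996 (Pearson, log2(FPKM + 1), across genes, which are not independent). The line's markers VIM (243 to 313 FPKM), CD44 (52.9 to 74.1) and AXL (89.9 to 126) were high, and ESR1, PGR, FOXA1 and the leukocyte gene PTPRC stayed at or under 0.0516 FPKM. SPARC (0.0188 to 0.215 FPKM) went against its marker list, on which it is high, as did KRT18 (126 to 164), on which it is low. Of the other markers on the lists, KRT8, a keratin of luminal cells, had means of 141, 91.3 and 84.3 FPKM from the control to 20 mM. The other epithelial or luminal markers also had their highest mean in the control, with 8.81, 5.91 and 5.76 FPKM for ERBB2, 2.03, 1.65 and 1.30 for GATA3, 3.75, 3.31 and 2.85 for EPCAM and 0.365, 0.0493 and 0.0686 for CDH1. So did the endothelial PECAM1, with 1.72, 1.23 and 0.914 FPKM, while ACTA2 and COL1A1 had means between 0.511 and 1.20 in all groups. The part of these markers in the results was not tested. Libraries of a group differed in the balance of long and short genes. At 10 mM 2-DG, genes over 8 kb lay at medians of 0.0906 (log2) above the group mean in replicate 1 and -0.0862 in replicate 2, and in control replicates 1 and 2 at -0.0673 and 0.0528.

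Most of the pathway was lower after 2-DG (plot of fold changes against control). At 20 mM 2-DG, 25 of the 37 genes fell, 2 rose (SC5D and MYLIP) and 10 were not called, at an adjusted p under 0.05 in limma. Across all 16570 genes tested, 21.6% were lower and 15.4% higher. At 10 mM, 21 of the 37 fell, the same 2 rose and 14 were not called, against 17.5% lower and 12.1% higher among all genes. The median log2 fold change of the 37 genes was -0.27 at 10 mM and -0.37 at 20 mM, and that of all genes was -0.01 and -0.02. Both comparisons share the control libraries, so their lists are not independent of each other. All fold changes are differences of log2(FPKM + 1), which understates the change of genes with low FPKM, and all 37 genes passed the filter on low values. In bulk RNA, fewer cells that express a gene and less of its RNA per cell cannot be told apart.

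**Figure D1:**
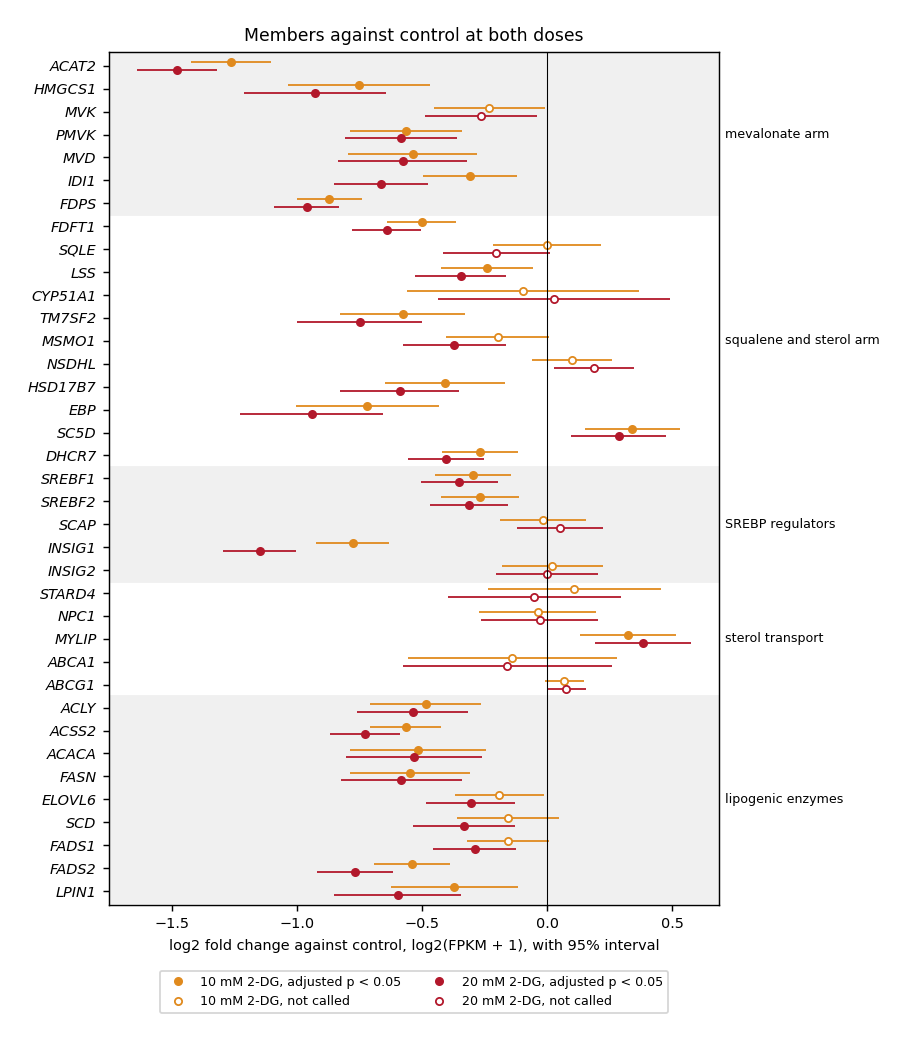
Log2 fold change of each of the 37 genes against control on log2(FPKM + 1), at 10 mM (orange) and 20 mM 2-DG (red), with 95% intervals from limma. Filled points have an adjusted p under 0.05 and open points do not. Shaded bands separate the roles. Points of the mevalonate arm and of the lipogenic enzymes all lie left of 0, and ACAT2 lies farthest left, at -1.27 and -1.48.

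By the thresholds of the study's methods, an unadjusted p under 0.05 with an absolute log2 fold change over 1, only ACAT2 was lower at 10 mM and only ACAT2 and INSIG1 at 20 mM, against 1.16% and 1.96% of all genes. No gene of the 37 was higher by these thresholds at either dose, against 0.579% and 0.966% of all genes. Most changes in the pathway were therefore smaller than 2-fold on this scale. The 3 treated libraries lay below all 3 control libraries for 22 of the 37 genes at 10 mM, against 22.7% of all genes, and for 27 at 20 mM, against 29.9%. They lay above for 3 genes at 10 mM, against 17.8%, and for 4 at 20 mM, against 23.3%. These 4 were SC5D, MYLIP, NSDHL and ABCG1. The median of the 37 genes was also below 0 within each class of gene length, at -0.20 (under 2 kb, 2 genes), -0.56 (2 to 4 kb, 8 genes), -0.35 (4 to 8 kb, 19 genes) and -0.44 (over 8 kb, 8 genes) at 20 mM. The medians of all genes in these classes lay between -0.03 and 0.00.

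The mevalonate arm showed the largest drop of the 5 roles by its median, with medians of -0.57 at 10 mM and -0.66 at 20 mM. At both doses 6 of 7 enzymes were lower, against 17.5% of all genes at 10 mM and 21.6% at 20 mM. The summed level of the arm was 152 to 173 FPKM in the control libraries, 91.1 to 103 at 10 mM and 86.3 to 92.1 at 20 mM. ACAT2, the cytosolic thiolase that joins 2 acetyl-CoA, gave 27.7, 26.0 and 25.9 FPKM in the control, 9.95, 11.5 and 9.94 at 10 mM and 8.42, 9.31 and 8.85 at 20 mM. Neither dose overlapped the control. Its mean fell from 26.5 ± 1.05 (SD, n = 3) to 8.86 ± 0.445 at 20 mM, 33.4% of the control mean, with log2 fold changes of -1.27 (SE 0.07, adjusted p = 3.16e-06, limma) and -1.48 (SE 0.07, adjusted p = 6.68e-07). ACAT2 lies at chr6:159760328-159779055 on the plus strand (GENCODE release 29, GRCh38), where 1458 of its exon bases are shared with SOD2-OT1 on the opposite strand. Whether strand was used in counting is not given in the sources used here, so any reads counted in that stretch could belong to either gene. The gene length that fits the FPKM values of ACAT2 is 2639 bases, against 4299 exon bases in GENCODE release 29. How much of the shared stretch was counted is therefore not known.

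FDPS, which makes farnesyl diphosphate, gave 48.0, 44.1 and 44.1 FPKM in the control, 24.2, 25.5 and 23.4 at 10 mM and 22.3, 23.7 and 22.4 at 20 mM. It was lower in every treated library, at 50.2% of the control mean at 20 mM (log2 fold change -0.96, SE 0.06, limma adjusted p = 2.27e-06). FDPS has 8 annotated pseudogenes, between which reads could be split, and shares 693 exon bases with RUSC1-AS1 on the opposite strand. HMGCS1, the HMG-CoA synthase of the cytosol, had 6.43, 7.43 and 7.06 FPKM in the control, 4.63, 3.12 and 3.55 at 10 mM and 2.86, 3.00 and 3.74 at 20 mM. Its treated libraries were all below the control, with a fall of 0.93 on the log2 scale at 20 mM (SE 0.13, limma adjusted p = 0.000371).

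PMVK, MVD, IDI1 and MVK moved less. PMVK, the second kinase of the pathway, had means of 38.9 ± 5.14, 25.9 ± 2.41 and 25.5 ± 1.64 FPKM (SD, n = 3) from the control to the higher dose. MVD, the decarboxylase, had means of 17.6 ± 2.17, 11.9 ± 1.75 and 11.5 ± 1.11 FPKM. Both fell by 0.58 on the log2 scale at 20 mM, with -0.57 and -0.54 at 10 mM. IDI1, the isomerase of isopentenyl diphosphate, went from 17.4, 15.8 and 17.2 FPKM to 11.9, 13.7 and 14.5 and then to 10.4, 11.0 and 9.40. Its log2 fold changes were -0.31 (limma adjusted p = 0.0205) and -0.66 (adjusted p = 0.00023), and the smaller was lost without control replicate 1 or 3 or 10 mM replicate 1 (adjusted p 0.0537 to 0.065) and under both other scalings. With all genes above 0 kept it was lost too (limma adjusted p = 0.0507). MVK, the first kinase, was not called at either dose, at -0.23 and -0.27 with intervals of -0.45 to -0.01 and -0.49 to -0.04, although its 20 mM libraries (5.76, 6.34 and 6.72 FPKM) lay below the control (8.66, 7.52 and 7.06). Without 10 mM replicate 2 it was called lower at both doses (limma adjusted p = 0.039 and 0.0375).

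**Figure D2:**
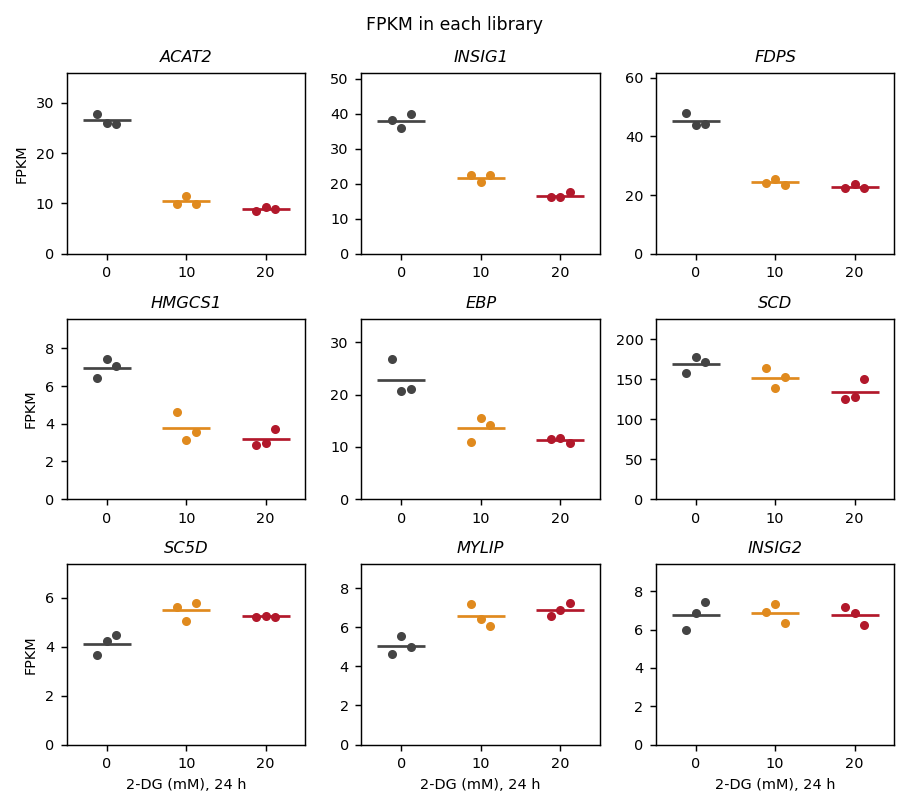
FPKM of 9 of the genes in each library (points) by 2-DG dose in mM, with the group mean as a bar and an axis that starts at 0. ACAT2, INSIG1, FDPS, HMGCS1 and EBP lie lower at both doses without overlap with the control, SCD is lower at 20 mM alone without overlap, SC5D and MYLIP lie higher, and the INSIG2 libraries of all doses lie between 5.97 and 7.46.

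The squalene and sterol arm was less uniform, with medians of -0.24 at 10 mM and -0.37 at 20 mM. Of its 11 enzymes, 6 were lower and 1 higher at 10 mM, against 17.5% and 12.1% of all genes. At 20 mM, 7 were lower and 1 higher, against 21.6% and 15.4%. EBP, the sterol isomerase, fell most. It gave 26.8, 20.7 and 21.1 FPKM in the control, 10.9, 15.6 and 14.1 at 10 mM and 11.5, 11.7 and 10.8 at 20 mM. No treated library reached the control range, and the mean at 20 mM was 49.6% of the control mean (log2 fold change -0.94, SE 0.13, limma adjusted p = 0.000365). TM7SF2, a sterol C14 reductase, fell from 6.38 ± 0.210 FPKM (SD, n = 3) to 3.98 ± 0.757 and 3.39 ± 0.254, by 0.75 on the log2 scale at 20 mM (limma adjusted p = 0.000652). FDFT1, the squalene synthase at the branch to sterols, fell from 44.5 ± 1.41 to 31.1 ± 1.89 and 28.1 ± 1.31 FPKM, by 0.50 and 0.64 on the log2 scale. Both genes had no treated library within the control range.

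HSD17B7, a sterol ketoreductase, fell by 0.41 and 0.59 on the log2 scale, and the call at 10 mM was lost without control replicate 3 (limma adjusted p = 0.0618). Its 2 annotated pseudogenes could share its reads. DHCR7, which makes cholesterol from its last precursor in one branch of the pathway, fell by 0.27 and 0.41, from 33.9 ± 2.77 to 27.9 ± 1.52 and 25.3 ± 0.496 FPKM (SD, n = 3). The call of DHCR7 at 10 mM was lost without control replicate 1 or 10 mM replicate 3 (limma adjusted p 0.0513 and 0.0541) and under median-ratio and upper-quartile scaling (0.055 and 0.0633). LSS, which closes the rings to lanosterol, fell by 0.24 and 0.35, and its call at 10 mM (limma adjusted p = 0.0498) was lost without control replicate 1 or 2, 10 mM replicate 1 or 3 or any library at 20 mM (adjusted p 0.0516 to 0.163). It was also lost under median-ratio and upper-quartile scaling (limma adjusted p 0.0979 and 0.1325) and with all genes above 0 kept (0.1137). The same held without a variance trend (0.059) and with only the 6 libraries compared (0.1054). MSMO1, a sterol methyl oxidase, was called at 20 mM alone, at -0.37 (limma adjusted p = 0.0105), with -0.20 at 10 mM (adjusted p = 0.136). Its control libraries gave 17.6, 19.1 and 22.2 FPKM and its 20 mM libraries 13.9, 15.5 and 15.2. These 4 enzymes were thus lower by smaller amounts than EBP.

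SC5D, the sterol desaturase that acts after EBP, moved the other way. It gave 3.65, 4.24 and 4.50 FPKM in the control, 5.62, 5.04 and 5.80 at 10 mM and 5.22, 5.27 and 5.23 at 20 mM. Every treated library was above every control library, at 133% and 127% of the control mean, with log2 fold changes of 0.34 (SE 0.09, limma adjusted p = 0.0138) and 0.29 (SE 0.09, adjusted p = 0.0246). The call at 20 mM was lost without control replicate 1 or any of the 3 libraries at 20 mM (adjusted p 0.0665 to 0.0797), and that at 10 mM without 10 mM replicate 3 (adjusted p = 0.0521). The gene length that fits its FPKM values is 10054 bases, against 5566 exon bases in GENCODE release 29, so the authors' gene model is longer than the one shown here.

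SQLE, CYP51A1 and NSDHL were not called. SQLE, the squalene epoxidase that is a control point of the pathway, gave 5.14, 5.41 and 5.25 FPKM in the control, 5.30, 4.77 and 5.76 at 10 mM and 3.82, 4.93 and 4.64 at 20 mM. Its difference was 0.00 at 10 mM (interval -0.22 to 0.22) and -0.20 at 20 mM (interval -0.42 to 0.01), where all 3 libraries were below the control. NSDHL, the sterol dehydrogenase, gave 22.4, 22.1 and 21.0 FPKM in the control and 24.8, 25.0 and 25.2 at 20 mM, above the control in every library at 0.19 (interval 0.03 to 0.35, limma adjusted p = 0.0644). It passed the threshold without 10 mM replicate 1 (adjusted p = 0.0192) or replicate 2 (adjusted p = 0.0284). NSDHL also passed with only the 6 libraries compared (limma adjusted p = 0.0149) and under median-ratio (0.04885) and upper-quartile scaling (0.0193). CYP51A1, the lanosterol demethylase, varied more between replicates than between groups, with 4.09, 1.89 and 2.02 FPKM at 10 mM against 2.48, 3.43 and 2.52 in the control. The high value is replicate 1, and without it the difference at 10 mM went from -0.10 to -0.36, still not called (limma adjusted p = 0.0956). CYP51A1 shares 2844 of its exon bases with AC000120.2 on the same strand, so its counts are uncertain.

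**Figure D3:**
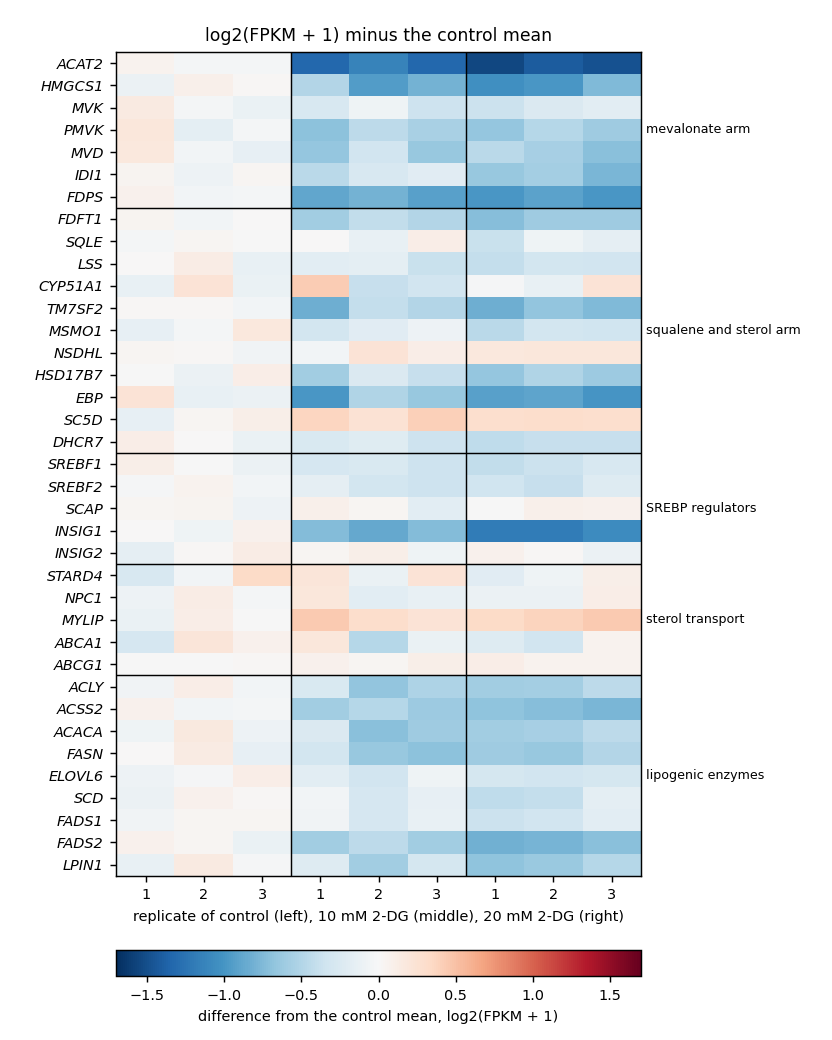
Difference of log2(FPKM + 1) from the control mean for the 37 genes (rows, by role) in the 9 libraries (columns), from blue (lower) to red (higher) on a scale in log2 units. The 6 treated columns are blue for most genes of synthesis, with SC5D and MYLIP red in all 6, and the 10 mM column of replicate 1 is paler than its neighbours for HMGCS1, ACLY, ACACA and FASN.

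Among the SREBP regulators, INSIG1, SREBF1 and SREBF2 fell at both doses, and SCAP and INSIG2 were not called. INSIG1, which retains SREBPs in the endoplasmic reticulum, gave 38.2, 35.9 and 40.1 FPKM in the control, 22.4, 20.4 and 22.5 at 10 mM and 16.2, 16.1 and 17.6 at 20 mM. The 3 conditions did not overlap, and the mean at 20 mM was 43.6% of the control mean. Its log2 fold changes were -0.78 (SE 0.07, limma adjusted p = 2.97e-05) and -1.15 (SE 0.07, adjusted p = 1.64e-06). INSIG2, its relative, gave 5.97, 6.89 and 7.46 FPKM in the control, 6.93, 7.32 and 6.36 at 10 mM and 7.16, 6.89 and 6.23 at 20 mM. The ranges lie on top of each other, and the interval of the difference at 20 mM ran from -0.20 to 0.20. The difference between the responses of the INSIG genes was not tested.

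SREBF1, which codes for the SREBP forms best known for fatty acid genes, had 27.1, 25.0 and 23.4 FPKM in the control, 20.5, 20.8 and 19.5 at 10 mM and 18.5, 19.3 and 20.7 at 20 mM. SREBF2, which codes for the form best known for cholesterol genes, had 29.5, 31.2 and 28.8, then 26.7, 23.9 and 23.2, then 23.4, 22.5 and 25.5. Both lay below the control in every treated library, by 0.35 and 0.31 on the log2 scale at 20 mM (limma adjusted p = 0.00298 and 0.00608) and by 0.30 and 0.27 at 10 mM. The call of SREBF2 at 10 mM was lost without control replicate 2 or 10 mM replicate 3 (adjusted p 0.06 and 0.059). SCAP, the escort, stayed at means of 22.8 ± 1.22, 22.6 ± 2.26 and 23.7 ± 0.915 FPKM (SD, n = 3), with an interval at 20 mM of -0.12 to 0.22. RNA levels of these regulators do not show how much SREBP protein was cut.

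The 5 genes of the sterol transport role did not follow the enzymes. None of the 5 was lower in limma at either dose, with no member under an unadjusted p of 0.05 but MYLIP, which rose. Their summed level was 39.2 to 46.9 FPKM in the control, 39.5 to 51.2 at 10 mM and 41.3 to 48.6 at 20 mM. These ranges overlap, but NPC1 made up most of the sum (control mean 30.9 FPKM), which says little about the other genes. The result holds for these 5 genes only. Of 15 other sterol transport genes, 7 were lower and 1 higher at 10 mM, and 7 lower and 2 higher at 20 mM. Among all genes, 17.5% were lower and 12.1% higher at 10 mM, and 21.6% and 15.4% at 20 mM. MYLIP, a ubiquitin ligase that marks lipoprotein receptors for breakdown, gave 4.61, 5.55 and 5.00 FPKM in the control, 7.20, 6.44 and 6.07 at 10 mM and 6.55, 6.87 and 7.25 at 20 mM. All treated libraries were above the control, at 130% and 136% of its mean, with log2 fold changes of 0.32 (SE 0.09, limma adjusted p = 0.019) and 0.38 (SE 0.09, adjusted p = 0.00647). The call at 10 mM was lost without control replicate 1 or 3 or 10 mM replicate 1 (adjusted p 0.0511 to 0.0647), and that at 20 mM held without each library. With only the 6 libraries compared, the call at 10 mM was lost too (limma adjusted p = 0.0545).

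NPC1, the lysosomal cholesterol exporter, had means of 30.9 ± 2.55, 30.2 ± 4.39 and 30.2 ± 2.71 FPKM (SD, n = 3), with an interval at 20 mM of -0.27 to 0.20. STARD4, a soluble sterol carrier, ranged from 4.05 to 6.61 FPKM in the control alone and from 4.35 to 5.55 at 20 mM. ABCA1, which loads cholesterol onto lipoproteins, ranged from 1.62 to 2.67 FPKM in the control and from 1.54 to 2.31 at 20 mM, with an interval of -0.58 to 0.26, within which a change could not be detected. ABCG1, a second exporter, was close to absent, with 0.0552, 0.0579 and 0.0810 FPKM in the control and 0.153, 0.107 and 0.109 at 20 mM. These stand for 12, 13 and 17 reads in the control, 26, 23 and 29 at 10 mM and 29, 26 and 22 at 20 mM. All treated libraries were above the control, at 181% and 190% of its mean, but the limma test on log2(FPKM + 1), which compresses such low values, gave adjusted p = 0.166 and 0.112.

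The lipogenic enzymes fell together at 20 mM, where all 9 were lower, against 21.6% of all genes, with a median of -0.54. At 10 mM, 6 of 9 were lower, against 17.5% of all genes, with a median of -0.49. The summed level of the 9 enzymes was 480 to 525 FPKM in the control, 356 to 423 at 10 mM and 336 to 379 at 20 mM. FASN, the fatty acid synthase, gave 109, 120 and 98.2 FPKM in the control, 87.5, 69.3 and 66.6 at 10 mM and 70.9, 69.3 and 76.5 at 20 mM. ACLY, which makes cytosolic acetyl-CoA from citrate, gave 87.3, 98.6 and 87.9, then 75.8, 57.0 and 62.8, then 59.9, 60.9 and 66.8. ACACA, the acetyl-CoA carboxylase of the first committed step, gave 9.78, 11.6 and 9.62, then 8.58, 5.91 and 6.47, then 6.52, 6.67 and 7.28. The 3 genes fell to between 65.9% and 68.5% of the control mean at 20 mM, with log2 fold changes of -0.58, -0.54 and -0.53 (limma adjusted p = 0.00222, 0.00228 and 0.00686), and to between 67.5% and 71.5% at 10 mM. In each, 10 mM replicate 1 was the highest library of its group. It lay above the group mean by 0.28 (log2) for ACACA, 0.24 for FASN and 0.22 for ACLY. The median of genes over 8 kb, such as ACACA and FASN, was 0.0906 in that library. The median of genes of 4 to 8 kb, such as ACLY, was 0.0262. Of the other genes over 8 kb in the roles, ABCA1 lay at 0.33 in that library, NPC1 at 0.22 and LPIN1 at 0.15. FADS1 lay at 0.10 and SREBF1 at 0.01, and FADS2 alone lay below its group mean, at -0.05. The part of gene length was not tested. Without 10 mM replicate 1 the log2 fold changes at 10 mM were -0.67 for FASN, -0.60 for ACLY and -0.65 for ACACA, from -0.55, -0.49 and -0.52 with it. In that run 19 genes were lower and 1 higher at 10 mM.

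The largest falls among the lipogenic enzymes at 20 mM were those of FADS2 and ACSS2. FADS2, the delta-6 desaturase of polyunsaturated fatty acids, gave 53.2, 51.5 and 46.5 FPKM in the control, 33.1, 36.6 and 33.1 at 10 mM and 28.1, 28.7 and 30.4 at 20 mM. Its log2 fold changes were -0.54 (SE 0.07, limma adjusted p = 0.000317) and -0.77 (SE 0.07, adjusted p = 2.31e-05), and no condition overlapped another. ACSS2, which makes acetyl-CoA from acetate, gave 22.8, 20.9 and 21.1, then 13.9, 15.2 and 13.7, then 13.1, 12.7 and 12.1. It too formed 3 separate ranges, with log2 fold changes of -0.57 (SE 0.06, limma adjusted p = 0.000154) and -0.73 (SE 0.06, adjusted p = 2.1e-05). LPIN1, a phosphatidate phosphatase, fell by 0.37 and 0.60 on the log2 scale, and the call at 10 mM was lost without control replicate 2 or 3, 10 mM replicate 2 or 3 or 20 mM replicate 2 (adjusted p 0.0516 to 0.117). That call was also lost under upper-quartile scaling (limma adjusted p = 0.0531) and with all genes above 0 kept (0.0826). The same held with only the 6 libraries compared (0.0669) and with a replicate block (0.0647).

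SCD, ELOVL6 and FADS1 were called at 20 mM alone. SCD, the stearoyl-CoA desaturase, had the highest level of the 37 genes, with 158, 178 and 172 FPKM in the control, 164, 139 and 152 at 10 mM and 125, 127 and 151 at 20 mM. Its 20 mM libraries were below the control, but by little in replicate 3. The log2 fold change of -0.33 (SE 0.09, limma adjusted p = 0.0167) was not called without control replicate 2 or 3 or 20 mM replicate 1 or 2 (adjusted p 0.0517 to 0.0716). Nor was SCD called under upper-quartile scaling (limma adjusted p = 0.0557) or with all genes above 0 kept (0.0509). ELOVL6, an elongase of saturated fatty acids, fell by 0.31 on the log2 scale at 20 mM, and FADS1, the delta-5 desaturase beside FADS2 on chromosome 11, fell by 0.29. ELOVL6 was not called without control replicate 3 (adjusted p = 0.0517), nor FADS1 without 20 mM replicate 1 (adjusted p = 0.0549). FADS1 and FADS2 share 490 exon bases on opposite strands, so reads there cannot be assigned without strand.

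The step from 10 mM to 20 mM was small (plot of the step between the doses). In limma, 0 of the 37 genes and 0 of all 16570 genes differed between the doses at an adjusted p under 0.05, also with limma-voom on recovered reads. At an unadjusted p under 0.05, 6 of the 37 were lower, against 4.13% of all genes, and the median of the 37 was -0.11 against -0.01. These were INSIG1, IDI1, FADS2, ACAT2, ACSS2 and FDFT1. In them and in DHCR7 the 3 libraries at 20 mM lay below those at 10 mM, which held for 7.14% of all genes. INSIG1 had the largest step at -0.37 (interval -0.52 to -0.23, unadjusted p = 0.00022, adjusted p = 0.146), and IDI1 followed at -0.36 (interval -0.54 to -0.17, unadjusted p = 0.00179, adjusted p = 0.316). The 4 genes called at 20 mM alone, MSMO1, ELOVL6, SCD and FADS1, had steps between -0.18 and -0.11, and none is shown to differ between the doses.

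**Figure D4:**
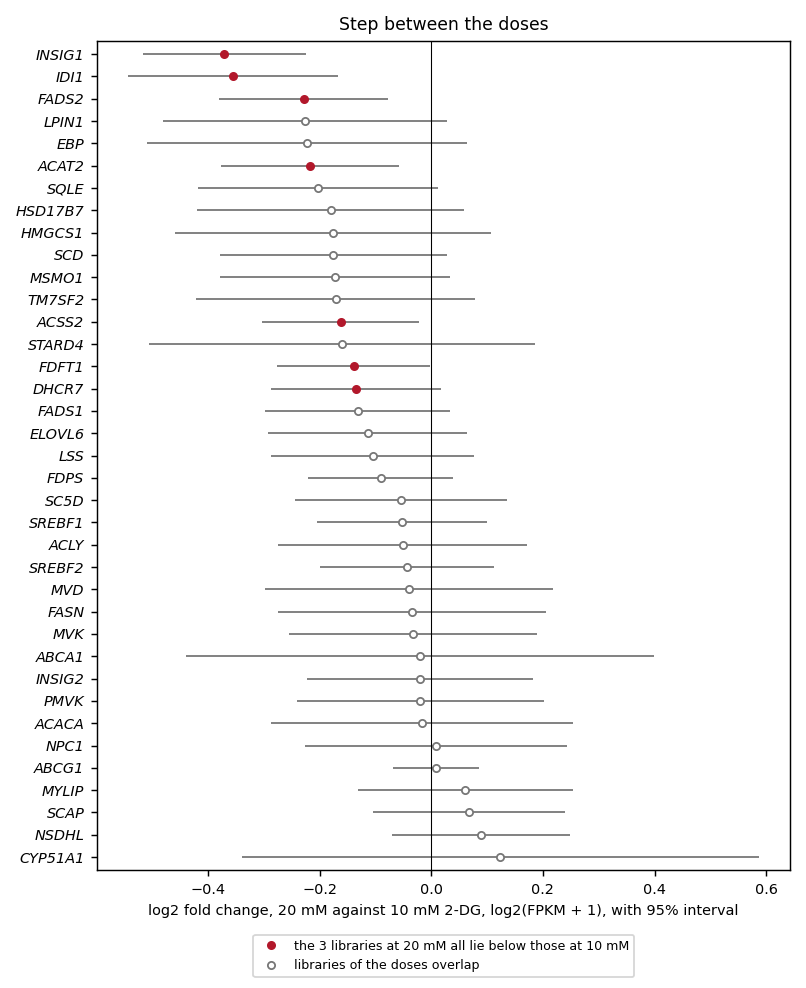
Log2 fold change of each gene at 20 mM against 10 mM 2-DG on log2(FPKM + 1) with its 95% interval from limma, in order of size. Red points mark the 7 genes whose 20 mM libraries all lie below those at 10 mM. Most points lie left of 0, between -0.37 for INSIG1 and 0.12 for CYP51A1, and no gene passed an adjusted p of 0.05.

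Genes of the same pathways outside the 37 were counted on 4 further lists at 20 mM 2-DG, where 21.6% of all tested genes were lower and 15.4% higher. Of 9 tested other sterol synthesis genes, 6 were lower and 1 was higher, with a median of -0.34. LBR, the second sterol C14 reductase and a protein of the nuclear envelope, gave 8.20, 9.48 and 10.7 FPKM in the control, 5.98, 4.70 and 6.10 at 10 mM and 4.46, 4.49 and 4.33 at 20 mM. It fell by 0.94 on the log2 scale (limma adjusted p = 0.000139), and TM7SF2, which catalyses the same step, fell with it. The higher gene was POR, which passes electrons to CYP51A1, SQLE and other enzymes, at 23.1, 23.6 and 21.0 FPKM in the control and 35.3, 34.9 and 32.9 at 20 mM (log2 fold change 0.59, limma adjusted p = 0.000778).

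Of 10 other SREBP control genes, 2 were lower and 3 higher, with a median of -0.09, against 21.6% and 15.4% of all genes. MBTPS2, the protease that makes the second cut in SREBPs, went from 1.76, 2.04 and 2.00 FPKM in the control to 0.978, 0.972 and 1.26 at 20 mM, without overlap (log2 fold change -0.50, limma adjusted p = 0.00384). TRIM21, a ubiquitin ligase, rose from 9.73 ± 0.356 to 13.1 ± 0.481 FPKM (SD, n = 3). Of 15 other sterol transport genes, 7 were lower and 2 higher, with a median of -0.13, against 21.6% and 15.4% of all genes. TMEM97, a sterol-regulated membrane protein that binds NPC1, fell from 11.6 ± 0.674 to 6.83 ± 0.376 FPKM, and VLDLR, a lipoprotein receptor, rose from 2.02 ± 0.389 to 3.50 ± 0.290 FPKM (log2 fold changes -0.69 and 0.58, limma adjusted p = 8.25e-05 and 0.00503).

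Of 22 tested other lipogenic genes, 12 were lower and 4 higher, with a median of -0.34, against 21.6% and 15.4% of all genes. SLC25A1, which exports the citrate that ACLY cleaves from mitochondria, gave 78.8, 65.8 and 60.2 FPKM in the control, 35.0, 43.9 and 33.9 at 10 mM and 34.5, 32.7 and 35.9 at 20 mM. Its level at 20 mM was 50.3% of the control mean (log2 fold change -0.96, limma adjusted p = 0.000161). SCD5, the second stearoyl-CoA desaturase, fell from 3.94 ± 0.109 to 2.40 ± 0.263 and 1.85 ± 0.192 FPKM (SD, n = 3), by 0.80 on the log2 scale at 20 mM (limma adjusted p = 0.000129). Citrate export, citrate cleavage, carboxylation and chain synthesis were thus each represented by a gene that fell, SLC25A1, ACLY, ACACA and FASN.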

How the data were processed

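RNA-seq libraries of MDA-MB-231 cells (control, 10 mM and 20 mM 2-DG, 24 h, 3 each) were grouped by their labels. The authors deposited FPKM values for 61552 genes, 1 file per library. GRCh38/hg38 is named in the submitters' processing notes, the aligner, counter and annotation are not given in the sources used here, and the study's DESeq2 results were not used. Whole reads were recovered from the FPKM steps (99.8% to 99.9% of library totals, tolerance 0.002 reads) and served for the filter (at least 10 reads at median depth in at least 3 libraries and 15 in all, leaving 16570 genes) and for limma-voom. A gene length was found for every gene above 0, but it equals the GENCODE release 29 exon length for 10 of the 37 genes only. Printed intervals are limma's 95% intervals from the spread between libraries.

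Differences were tested with limma 3.58.1 in R 4.3.3 (lmFit, eBayes with a trend, no replicate block, all 9 libraries) on log2(FPKM + 1), with Benjamini-Hochberg adjustment over all genes tested and a threshold of 0.05, after a test on simulated data. No pair of replicates agreed within sampling noise, so none was taken for 1 library deposited more than once. The 37 genes and the other lists were chosen with earlier results of these data known. Per-library values were given for the largest changes at 20 mM in each role and for genes that differ in direction, and the 2 largest changes of each further list were named. 2 genes that this rule picks are not reported here, and the next in order stand in their place. Pseudocount, filters, scaling, variance prior, libraries in the fit, replicate block, thresholds and left-out libraries were varied. Lactate-treated cells are not analysed here. Motifs were searched with Python 3.11.15 on both strands of RefSeq promoters.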

Additional observations from a re-analysis of the deposited data

How the results depend on the processing

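The median of the 37 genes stayed below 0 under every alternative run, between -0.31 and -0.21 at 10 mM and between -0.41 and -0.28 at 20 mM, and no gene's called change reversed. Leaving out 1 library at a time gave 17 to 21 lower and 1 to 2 higher genes at 10 mM, 23 to 26 lower and 1 to 3 higher at 20 mM, and 0 between the doses. Of the calls in limma, 15 of 21 lower genes at 10 mM and 22 of 25 at 20 mM passed under every pseudocount, filter, scaling, prior, fit and left-out library, and of the 2 higher genes MYLIP did at 20 mM and neither at 10 mM. With only the 6 libraries compared, 1 gene was higher at 10 mM. With the study's thresholds the counts were 0 higher and 1 lower at 10 mM and 0 higher and 2 lower at 20 mM, since they ask for a change of over 1 on the log2 scale. Upper-quartile scaling gave 17 lower genes at 10 mM and 24 at 20 mM. It moved the median of all genes at 20 mM from -0.02 to 0.02 and their split from 2544 higher and 3582 lower to 3277 and 2780, while the 37 genes stayed at 24 lower and 3 higher, NSDHL being the third. MVK was called lower at 20 mM with limma-voom (adjusted p = 0.0432). The cause of these shifts was not tested. At 3 libraries per group, differences as small as those of MVK or NSDHL lie at the limit of the test, and for ABCG1 the 12 to 29 reads per library limit the precision.

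The replicate numbers of the labels did not pair the libraries. With the group mean of each gene subtracted from log2(FPKM + 1), same-numbered libraries of different conditions correlated between -0.41 and 0.29. Differently numbered libraries correlated between -0.23 and 0.52. The highest were control replicate 1 with 10 mM replicate 2 (0.52) and control replicate 2 with 10 mM replicate 1 (0.49). What these libraries share was not tested. With a replicate block, 20 genes were lower and 2 higher at 10 mM and 25 and 2 at 20 mM, with LPIN1 at 10 mM the call that was lost (adjusted p = 0.0647).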

Other observations

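Genes of fatty acid oxidation, the mitochondrial and peroxisomal route that breaks down what the lipogenic enzymes build, were lower as well. Of 19 tested genes of 20 listed, 11 were lower and 0 higher at 10 mM 2-DG (limma, adjusted p under 0.05), against 17.5% and 12.1% of all genes. At 20 mM, 12 were lower and 0 higher, against 21.6% and 15.4% of all genes. No gene of the list was higher at an unadjusted p under 0.05 either. The median was -0.29 at 10 mM and -0.32 at 20 mM. ETFB, a subunit of the electron carrier for acyl-CoA dehydrogenases, gave 3.38, 2.70 and 2.76 FPKM in the control, 1.30, 1.62 and 1.44 at 10 mM and 1.09, 1.10 and 1.16 at 20 mM, 37.9% of the control mean (log2 fold change -0.89, limma adjusted p = 7.64e-05). HADH, a hydroxyacyl-CoA dehydrogenase, gave 4.77, 4.33 and 4.53, then 2.33, 2.42 and 2.48, then 1.82, 2.19 and 2.14 FPKM (log2 fold change -0.86 at 20 mM, limma adjusted p = 4.39e-05). Both lay below the control in all 6 treated libraries. CPT1A, which controls the entry of fatty acids into mitochondria, was not called and kept means of 18.7 FPKM in the control and 18.4 at 20 mM.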
